A study of Mus musculus with 8 samples.

Results

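NRF2, encoded by Nfe2l2, its competitor Bach1 and 8 antioxidant genes were followed in S0 cells of the mouse fetal liver, the lineage-negative, CD71- and Ter119- fraction that contains early erythroid precursors. The 10 genes were Nfe2l2 and Bach1 among the regulators, and Hmox1, Nqo1, Gclc, Gclm, Gsr, Txnrd1, Srxn1 and G6pdx among the targets. They were chosen by name as NRF2 and its textbook targets, with earlier results of these data known. They were found in the deposited table of 52636 genes by gene identifier. All 10 were among the 17378 genes that passed a filter on low counts and were tested, and the lowest count of any of them in any library was 217, for Hmox1.

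RNAseq libraries had been made from S0 cells sorted at E12.5 from embryos labelled wild type (WT, 4 libraries) and DKO (4 libraries), on a C57BL/6J background. DKO embryos carry Vps13a-/-, the tm1d allele obtained by breeding to FLP and then to β-actin-Cre mice, which act in the whole body and remove exon 6, together with Vps13c-/-. VPS13A and VPS13C are proteins that transfer lipids between membranes of different organelles. The DKO embryos come from matings of Vps13a+/- Vps13c-/- mice, which yield no embryo with an intact Vps13c allele, so that a difference between litters or matings and a difference between genotypes cannot be told apart. Each library was treated as 1 sample, although the sources used here do not say that it came from 1 embryo, and p-values then measure the spread between these libraries, which may be technical in part.

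NRF2 is a transcription factor that is held at a low level by KEAP1, an adaptor that delivers it to a CUL3 ubiquitin ligase. When oxidants or electrophiles modify KEAP1, NRF2 accumulates, pairs with a small MAF protein and binds antioxidant response elements near the genes of glutathione synthesis, thioredoxin reduction, NADPH supply and heme breakdown. BACH1 pairs with the same small MAF proteins and represses part of these genes, Hmox1 in particular, until heme binds BACH1 and removes it. Erythroid precursors handle large amounts of heme and iron, and the balance of BACH1, NRF2 and the small MAF proteins is part of their normal maturation. NRF2 is regulated largely at the level of the protein, which these data do not measure.

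The core of the antioxidant response element, TGACNNNGC on either strand (N is any base), was searched in promoter sequences of RefSeq (GRCm38.p6) from 250 bases before to 50 bases after each gene start. RefSeq sequences of this kind were matched for 7 of the 10 genes, with 9 promoters in all, and 5 of the 7 genes (Nfe2l2, Gclm, Txnrd1, G6pdx and Srxn1) had 1 match each. Of the 9 promoters, 5 thus held a match. Nqo1 and Bach1 had no match, and no such sequence was at hand for Hmox1, Gclc and Gsr. Of all 32851 promoters searched, 12.4% held a match. The stretch before the start of Gclm, the gene with the steadiest difference below, is at chr3:122245307-122245556 on the plus strand, with its match in capitals beginning 134 bases before the start, and that of Nfe2l2 itself is at chr2:75704664-75704913 on the minus strand, with its match 240 bases before the start.

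Gclm: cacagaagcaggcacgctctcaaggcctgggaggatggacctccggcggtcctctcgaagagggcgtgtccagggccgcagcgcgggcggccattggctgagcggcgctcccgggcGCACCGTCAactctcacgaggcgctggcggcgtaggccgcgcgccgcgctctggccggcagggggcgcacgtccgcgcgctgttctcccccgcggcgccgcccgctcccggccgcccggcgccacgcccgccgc
Nfe2l2: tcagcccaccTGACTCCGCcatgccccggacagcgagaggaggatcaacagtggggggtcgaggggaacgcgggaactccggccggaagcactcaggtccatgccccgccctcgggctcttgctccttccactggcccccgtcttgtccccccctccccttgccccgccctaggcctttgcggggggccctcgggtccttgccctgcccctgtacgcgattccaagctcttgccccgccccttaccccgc

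The matches of a gene that fell (G6pdx), of one that was not called (Txnrd1) and of Srxn1 are shown with 10 bases on each side, again with the match in capitals. They lie at chrX:74428919-74428947 on the minus strand, 57 bases before the RefSeq start, at chr10:82859104-82859132 on the plus strand, 92 bases before one of the RefSeq starts, and at chr2:152105542-152105570 on the plus strand, 28 bases after the start. Among the genes with a match, Gclm rose, Nfe2l2 and G6pdx fell, and Txnrd1 and Srxn1 were not called. Nqo1, which also rose, had no match, and Hmox1 could not be searched. A match is a run of letters and does not show that a factor binds there.

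G6pdx: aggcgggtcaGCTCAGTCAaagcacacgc
Txnrd1: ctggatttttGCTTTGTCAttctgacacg
Srxn1: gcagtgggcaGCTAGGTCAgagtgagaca

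The deposited counts summed to 42114489 to 50886469 per WT library and 36981439 to 42587815 per DKO library. Vps13a, one of the deleted genes, was lower in DKO (log2 fold change -1.29, edgeR adjusted p = 0.00247), while Vps13c counted over the whole gene did not check the label (0.49, edgeR adjusted p = 0.182). By Xist, at most 62.3 normalized counts in all 4 WT libraries and DKO replicate 3 and at least 18029 in DKO replicates 1, 2 and 4, and by the Y-linked Ddx3y, the first 5 libraries were male and the other 3 female. Erythroid markers were present in every library, with 12 markers summing to 962 to 1129.5 CPM (counts scaled to a common library total of 1e6) in WT and 879 to 1374 in DKO, and 2 of the 12 rose. Other cells of the liver were also represented: 12 hepatoblast markers summed to 16307 to 22089.5 CPM in WT and to 11830 to 18708 in DKO replicates 1, 2 and 4 but to 4901 in DKO replicate 3, and none of the 12 passed edgeR's test (5 did at an unadjusted p under 0.05, and 5 with DESeq2 after adjustment). Of the neutrophil, endothelial and macrophage markers tested, 4 of 8, 2 of 8 and 1 of 11 fell, and 7 of 8 mesenchymal markers rose, from 46.5 to 131 CPM in WT to 296 to 1027 in DKO, while Cd163, a macrophage marker, was at 0 in every library. Of 8 megakaryocyte markers 1 fell, and their sum was 1369 to 1599 CPM in WT, 1137 and 986 in DKO replicates 1 and 2, and 2258 and 2875 in DKO replicates 3 and 4. Over all genes tested, 10.7% rose and 10.8% fell, and the counts of called markers are to be read against these shares. The part of these markers and of sex in the differences below was not tested except where a value is given, and in bulk RNA fewer cells of a type and less RNA per cell cannot be told apart.

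Of the 10 genes, 3 were higher in DKO at an edgeR adjusted p under 0.05 (Hmox1, Nqo1 and Gclm), against 10.7% of all genes tested. Another 2 were lower (Nfe2l2 and G6pdx), against 10.8% of all genes tested, and 5 were not called (Bach1, Gclc, Gsr, Txnrd1 and Srxn1). All 4 DKO libraries lay above all 4 WT libraries for 1 gene, Gclm (13.5% of all genes tested did so), and below them for 1 gene, G6pdx (14.6% of all genes tested). Together 5 of the 10 were called, against 21.6%. With a log2 fold change beyond 1 as a further condition, 1 remained higher, Hmox1 (6.19% of all genes tested), and by edgeR 0 were lower (2.43%), as they were at an unadjusted p under 0.05 and with DESeq2. The median log2 fold change of the 10 genes was 0.19, against 0.032 over all genes tested. Values below are normalized counts: each count was scaled by its library's TMM-corrected total so that all 8 libraries had the same effective total, the mean of the 8.

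**Figure D1:**
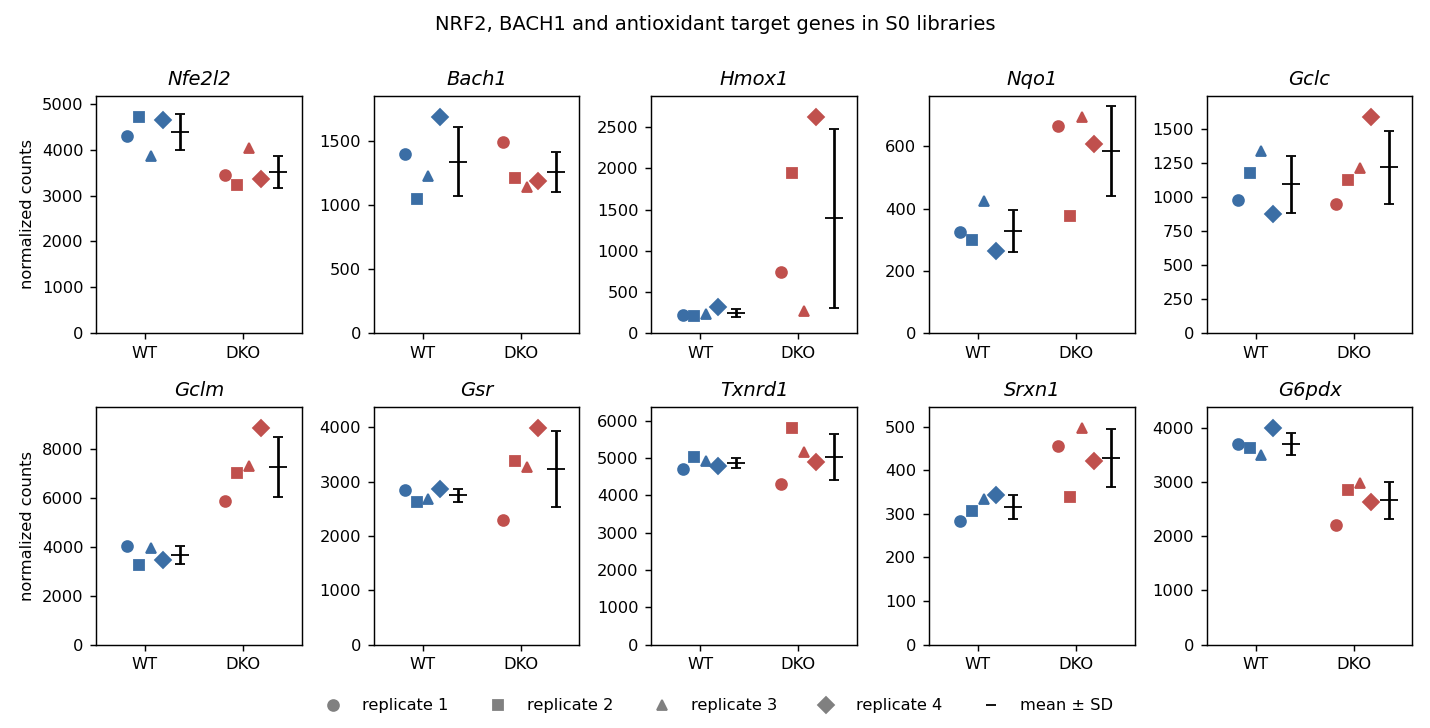
Normalized counts (vertical axis of each panel, from 0) of the 10 genes in 4 WT (blue) and 4 DKO (red) libraries, with 1 symbol per replicate number and the mean ± SD in black. The DKO points of Gclm lie above all WT points and those of G6pdx below them, and the 4 DKO points of Hmox1 spread from 265 to 2622.

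Nfe2l2 (ENSMUSG00000015839.6, minus strand of chr2:75675513-75704641) had 4287, 4707, 3855 and 4647 normalized counts in WT replicates 1 to 4 and 3444, 3230.3, 4026 and 3357 in the DKO replicates. DKO replicates 1, 2 and 4 lay below the whole WT group, and DKO replicate 3 lay inside it. From a WT mean of 4374 ± 392 to a DKO mean of 3515 ± 352 (SD over 4 libraries), Nfe2l2 fell by 19.7% (log2 fold change -0.32 with standard error 0.099, edgeR adjusted p = 0.0483). The call was at the edge of the threshold and was lost in 6 of the 8 fits that each leave out 1 library, all but those without WT replicate 3 or DKO replicate 3, with adjusted p up to 0.125.

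Bach1 (ENSMUSG00000025612.5, chr16:87698945-87733346), which encodes the heme-binding repressor, had 1395, 1049, 1230.1 and 1686 normalized counts in the WT libraries and 1489, 1212, 1142 and 1188 in the DKO libraries. The groups overlapped, and the log2 fold change of -0.091 had a 95% interval from -0.45 to 0.26 (edgeR adjusted p = 0.724). Its sign was not settled, since it became 0.032 without WT replicate 4 and 0.023 with upper-quartile scaling.

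Around these regulators, 14 genes that control NRF2 or pair with it were examined, of which 3 rose and 1 fell, against 10.7% and 10.8% of all genes tested. The genes of the KEAP1 ligase were not called with the settings used throughout. Keap1 had a log2 fold change of 0.032 (95% interval -0.19 to 0.25, edgeR adjusted p = 0.850), Cul3 of -0.089 (adjusted p = 0.554) and Rbx1, the RING subunit of the ligase, of 0.26 (adjusted p = 0.0562). Btrc and Gsk3b, which serve a KEAP1-independent route of NRF2 degradation, had -0.35 (adjusted p = 0.0790) and 0.14 (adjusted p = 0.508), and Fbxl17, a ligase subunit for BACH1, had 0.36 (adjusted p = 0.213). Sqstm1, the autophagy receptor p62 that binds KEAP1 and is itself an NRF2 target, ranged over 6449 to 6843 normalized counts across the WT libraries and 7399 to 9506 in the DKO libraries without overlap (0.34, edgeR adjusted p = 0.0271), but its call was lost when any 1 of WT replicates 1, 2 and 4 or of DKO replicates 2 and 4 was left out. With a term for the sex of the library, added after the data were seen, Sqstm1 was not called either (edgeR adjusted p = 0.344). Rbx1 passed in 6 of 16 alternatives, namely without TMM, with upper-quartile scaling, the stricter filter, protein-coding genes or DESeq2, and without DKO replicate 1 (edgeR adjusted p = 0.0130). Btrc passed in 2 of 16, with DESeq2 and without DKO replicate 1 (edgeR adjusted p = 0.0319).

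The small MAF genes, whose products pair with both NRF2 and BACH1, changed in different directions. Maff had 385, 302, 351 and 419.6 normalized counts in the WT libraries and 549.5, 690.5, 597 and 942 in the DKO libraries (log2 fold change 0.93 with standard error 0.21, edgeR adjusted p = 0.0142). Mafg rose from 1875 ± 130.1 to 2625 ± 395 (0.49, adjusted p = 0.0180). Mafk had 2232, 1744, 1903 and 1750.2 normalized counts in the WT libraries and 847, 1247, 1487 and 1413 in the DKO libraries (-0.61, standard error 0.17, edgeR adjusted p = 0.0345). None of these 3 genes overlapped between genotypes. Of all genes tested, 13.5% had every DKO library above every WT library and 14.6% every DKO library below. With 1 library left out, Maff kept its call in 8 of 8 fits, Mafg lost it without WT replicate 1 or 4, and Mafk lost it without any 1 of the 4 WT libraries or DKO replicate 2 (adjusted p up to 0.104). With the term for sex, Maff, Mafg and Mafk had edgeR adjusted p of 0.203, 0.217 and 0.457. On a scale of counts per kilobase of exon, which allows genes to be compared, the ratio of Maff to Mafk was 0.260 to 0.361 in the WT libraries and 0.604 to 1.003 in the DKO libraries, a ratio chosen after the values were seen and not tested.

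Other partners and relatives were not called with the settings used throughout. Nfe2, the erythroid member of the NRF2 family that pairs with the same MAF proteins, ranged over 12151 to 12736 normalized counts across the WT libraries and 6027, 8140.2, 10850.1 and 10270.0 in the DKO libraries, with no overlap but an edgeR adjusted p of 0.0542 (log2 fold change -0.50). It passed in 5 of 16 alternatives. By edgeR these were without DKO replicate 1 (adjusted p = 0.0277) or 3 (0.0272), without TMM (0.0322) and with the stricter filter (0.0394). The fifth was DESeq2 (adjusted p = 0.0182). Nfe2l1 had 0.21 (adjusted p = 0.217) and Bach2 had 0.71 (adjusted p = 0.206), and Nfe2l3 was detected at no more than 63.5 normalized counts in any library.

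**Figure D2:**
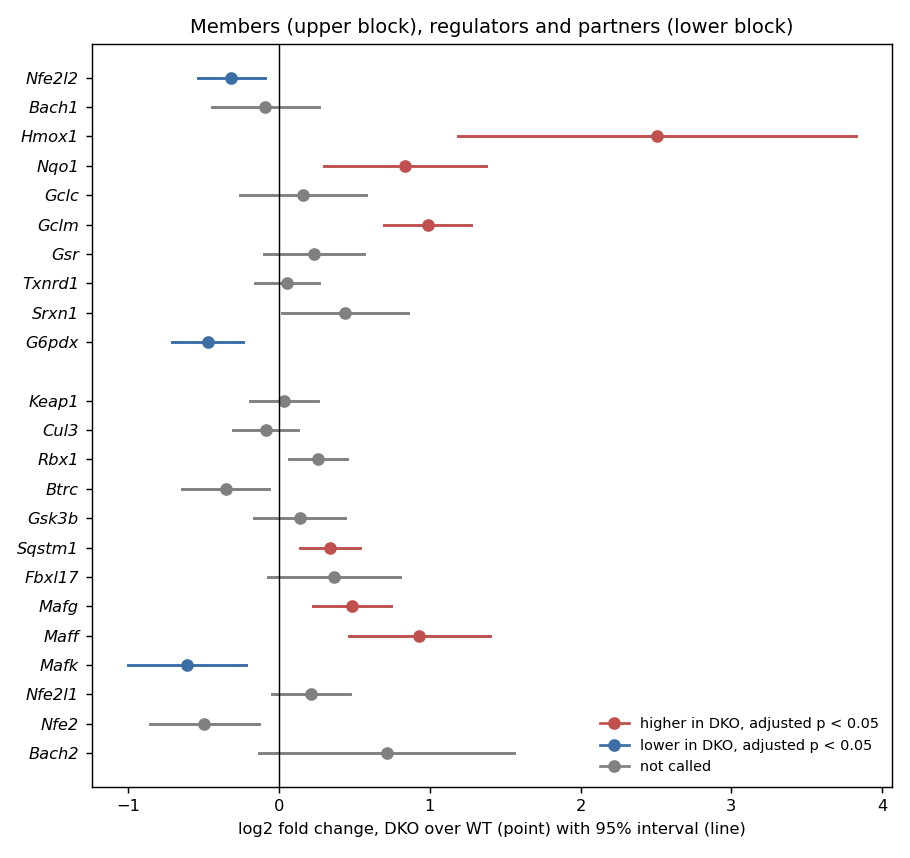
Log2 fold change of DKO over WT (horizontal axis, point) with its 95% interval (line) for the 10 genes (upper block) and 13 regulators and partners (lower block, Nfe2l3 left out for its low counts), coloured by the edgeR call. Hmox1 has the largest value and the widest interval among the 10 genes, 1.19 to 3.83, and Maff and Mafk lie on opposite sides of 0.

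Hmox1 (ENSMUSG00000005413.8, chr8:75093621-75100589), the inducible heme oxygenase that opens the heme ring and releases iron, had the largest difference of the 10 genes. It had 227, 209, 230.2 and 314 normalized counts in the WT libraries and 739, 1947, 265 and 2622 in the DKO libraries. The WT libraries were close together, DKO replicates 1, 2 and 4 lay above all of them, and DKO replicate 3 lay within the WT range. The mean rose from 245 ± 46.8 to 1393 ± 1083 (SD over 4 libraries), 5.68-fold with a 95% interval of 2.28 to 14.2 (log2 fold change 2.51 with standard error 0.59, edgeR adjusted p = 0.0172). With 1 library left out the log2 fold change ran from 2.02 to 2.86, and the adjusted p rose to 0.0591 without WT replicate 1 and 0.0556 without WT replicate 2.

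DKO replicate 3 also differed from the other DKO libraries in sex and in its summed hepatoblast and macrophage markers. It was the only male DKO library, and its hepatoblast sum of 4901 CPM was the lowest of all 8 libraries. Its sum of 14 macrophage markers, 33.3 CPM, was also the lowest. That sum was 66.1, 103 and 72.6 CPM in DKO replicates 1, 2 and 4 and 116 to 173 CPM in WT. Single macrophage markers did not all follow it. Among the DKO libraries, Vcam1, Cd68 and Mertk were lowest in replicate 3. Adgre1 was highest there (31.7 normalized counts against 7.36, 16.3 and 0 in replicates 1, 2 and 4), as was Cd5l. Csf1r was lowest in replicate 1 (62.0 against 529.9 in replicate 3). The hepatoblast sum was 16307 to 22089.5 CPM in the WT libraries, with Hmox1 at 209 to 314 normalized counts. In DKO replicates 1 to 4 the sum was 11830, 18708, 4901 and 16341 CPM, with Hmox1 at 739, 1947, 265 and 2622. Within DKO, Hmox1 was thus lowest in replicate 3 and next lowest in replicate 1, as was the hepatoblast sum. The part of the hepatoblast and macrophage markers in the Hmox1 difference was not tested. Between male libraries alone, Hmox1 was 265 in the 1 DKO library and 209 to 314 in WT. With the term for sex, the genotype difference rested on that single library and the log2 fold change was 0.11 (edgeR adjusted p = 0.925). For Hmox1, genotype and sex cannot be told apart in these libraries, since no WT library was female.

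**Figure D3:**
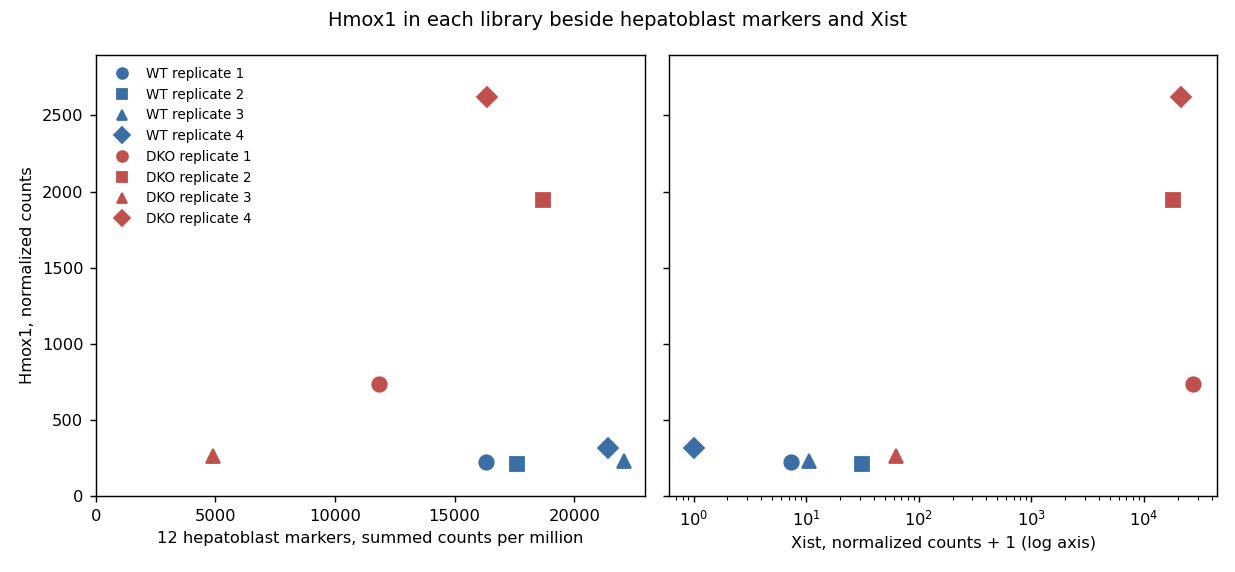
Normalized counts of Hmox1 (vertical axis) in each of 8 libraries against the summed CPM of 12 hepatoblast markers (left) and the normalized counts of Xist plus 1 on a log axis (right), with WT in blue and DKO in red. DKO replicate 3, at 265 normalized counts of Hmox1 and 4901 CPM of hepatoblast markers, lies apart from the other DKO libraries in both panels.

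Hmox2, the constitutive heme oxygenase, went the other way, from 4142 to 4304 normalized counts in WT to 2288 to 3656 in DKO without overlap (log2 fold change -0.48, edgeR adjusted p = 0.0278), a call that was lost without any 1 of the 4 WT libraries or DKO replicate 4 (adjusted p up to 0.0782). Per kilobase of exon, the ratio of Hmox1 to Hmox2 ranged over the WT libraries from 0.0615 to 0.0953, and was 0.409, 0.674, 0.104 and 1.14 in DKO replicates 1 to 4. Hmox1 thus exceeded Hmox2 per kilobase in DKO replicate 4 alone. Hmox2 and this ratio were named after their values were seen.

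Nqo1 (ENSMUSG00000003849.8, minus strand of chr8:107388225-107403206), a quinone reductase commonly used as an NRF2 readout, had 325, 300.4, 424 and 264 normalized counts in the WT libraries and 664, 375, 693 and 607 in the DKO libraries. DKO replicate 2 lay within the WT range and the other DKO libraries lay above it, so the library that was low for Nqo1 was not the one that was low for Hmox1. The mean rose from 328 ± 68.5 to 585 ± 144 (SD over 4 libraries), 1.78-fold (log2 fold change 0.83 with standard error 0.24, edgeR adjusted p = 0.0356). The call was lost in 6 of 8 fits with 1 library left out, all but those without WT replicate 3 or DKO replicate 2, with adjusted p up to 0.104 and a log2 fold change of 0.73 to 0.99.

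Gclm and Gclc encode the modifier and the catalytic subunit of glutamate-cysteine ligase, which carries out the first step of glutathione synthesis. Gclm (ENSMUSG00000028124.15, chr3:122245557-122270732) had 4049.5, 3248, 3937 and 3476 normalized counts in the WT libraries and 5899.8, 7015, 7338 and 8858 in the DKO libraries. The lowest DKO library was well above the highest WT library. The mean rose from 3678 ± 379 to 7278 ± 1221 (SD over 4 libraries), 1.98-fold with a 95% interval of 1.62 to 2.42 (log2 fold change 0.98 with standard error 0.13, edgeR adjusted p = 0.00255). Gclm was called in 16 of 16 alternative settings, the term for sex included, and among the male libraries it was 7338 in DKO replicate 3 against 3248 to 4049.5 in WT. A transcript on the opposite strand, Gm17494, overlaps Gclm and had 153 to 498 counts, which the counting may not separate because its strand setting is not given in the sources used here.

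Gclc (ENSMUSG00000032350.9, chr9:77754535-77794485) had 979, 1182, 1345 and 879 normalized counts in the WT libraries and 949, 1131, 1217 and 1590.3 in the DKO libraries. Only DKO replicate 4 exceeded the WT range, and the log2 fold change of 0.16 had a 95% interval from -0.26 to 0.57 (edgeR adjusted p = 0.591). Per kilobase of exon, the ratio of Gclm to Gclc was 1.65 to 2.48 in the WT libraries and 3.33 to 3.72 in the DKO libraries, so the transcripts of the 2 subunits stood in a different proportion in the genotypes. This ratio was chosen after the values were seen and was not tested.

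Gsr (ENSMUSG00000031584.16, chr8:33652523-33698163), which returns oxidized glutathione to its reduced form at the cost of NADPH, had 2852, 2617, 2683 and 2855 normalized counts in the WT libraries and 2287, 3387, 3271 and 3979.9 in the DKO libraries. DKO replicate 1 was the lowest and DKO replicates 2, 3 and 4 were the highest of all libraries. The log2 fold change was 0.23 (95% interval -0.099 to 0.56, edgeR adjusted p = 0.292). Without DKO replicate 1 it was 0.37 and passed the test (edgeR adjusted p = 0.0189), so 1 library decided this call.

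In the thioredoxin arm, Txnrd1 (ENSMUSG00000020250.10, chr10:82833951-82897712), the cytosolic thioredoxin reductase, had 4706, 5016, 4915 and 4786 normalized counts in the WT libraries and 4304, 5789, 5148 and 4893 in the DKO libraries. The groups overlapped, and the 95% interval of the log2 fold change ran from -0.16 to 0.26 around 0.052 (edgeR adjusted p = 0.738), so that a change of the size seen for Gclm lay outside it. Srxn1 (ENSMUSG00000032802.8, chr2:152105516-152111376), sulfiredoxin, which repairs over-oxidized peroxiredoxins, had 283, 306, 334 and 343 normalized counts in the WT libraries and 456, 339, 496 and 420.0 in the DKO libraries. Here DKO replicate 2 lay within the WT range, as it did for Nqo1. The log2 fold change of 0.44 did not pass the test (95% interval 0.019 to 0.85, edgeR adjusted p = 0.123), nor did it in any of 16 alternative settings.

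G6pdx (ENSMUSG00000031400.10, minus strand of chrX:74409483-74429194), the first enzyme of the pentose phosphate pathway and a main source of NADPH, had 3714, 3628, 3499 and 3995 normalized counts in the WT libraries and 2209.7, 2849, 2995 and 2629.9 in the DKO libraries. Every DKO library lay below every WT library. From a WT mean of 3709 ± 210.3 to a DKO mean of 2671 ± 342 (SD over 4 libraries), G6pdx fell by 28.0% (log2 fold change -0.47 with standard error 0.10, edgeR adjusted p = 0.0133). G6pdx is X-linked, and among the male libraries it was 2995 in DKO replicate 3 and 3499 to 3995 in WT. The call held in 8 of 8 fits with 1 library left out (adjusted p up to 0.0449) and was lost with the term for sex (-0.31, edgeR adjusted p = 0.270). Ikbkg overlaps G6pdx on the opposite strand and had 899 to 1720 counts.

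Between genes, levels were compared per kilobase of exon. In WT, G6pdx was the most abundant of the 10 genes with 1204 normalized counts per kilobase, followed by Nfe2l2 with 1152, Gsr with 999, Txnrd1 with 685 and Gclm with 585. Gclc had 291, Bach1 217, Nqo1 211, Hmox1 140.0 and Srxn1 112. Over the WT libraries, G6pdx and Nfe2l2 overlapped, as did Nfe2l2 and Gsr and each neighbouring pair from Gclc down to Srxn1, whereas Gsr and Txnrd1, Txnrd1 and Gclm, and Gclm and Gclc did not. In DKO the order was led by Gsr with 1173 and Gclm with 1157, and G6pdx, with 867, was no longer the first. Hmox1 moved from place 9 to place 5, with 796 per kilobase, but its range in DKO, 151 to 1497, spanned those of its neighbours. Relative to all genes tested, Hmox1 exceeded 52.0% of them in WT and 82.0% in DKO, and Gclm exceeded 76.6% and 86.7%.

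The libraries did not rank alike across the 10 genes. DKO replicate 4 held the highest value of all 8 libraries for 4 of them (Hmox1, Gclc, Gclm and Gsr), while DKO replicate 1 held the lowest for 3 (Gsr, Txnrd1 and G6pdx). The coefficient of variation within a genotype was 77.7% for Hmox1 in DKO against 19.1% in WT, and lay between 10.03% and 24.7% in DKO for the other 9 genes. With 1 library left out at a time, the log2 fold change of Gclm stayed between 0.88 and 1.08. That of G6pdx stayed between -0.53 and -0.39. Calls of Nfe2l2, Hmox1, Nqo1 and Gsr changed in some of these fits. Over all genes tested, 3745 were called with all 8 libraries. Without WT replicates 1 to 4 in turn, the number called was 1756, 2061, 3089 and 1905. Without DKO replicates 1 to 4 in turn, it was 3927, 3437, 3862 and 2985. The total thus rose above that with all 8 libraries only without DKO replicate 1 or 3. Nqo1 lost its call in each of these fits, and Nfe2l2 lost its call without DKO replicate 1. The totals are net, and how many genes lost a call in each fit was not counted.

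**Figure D4:**
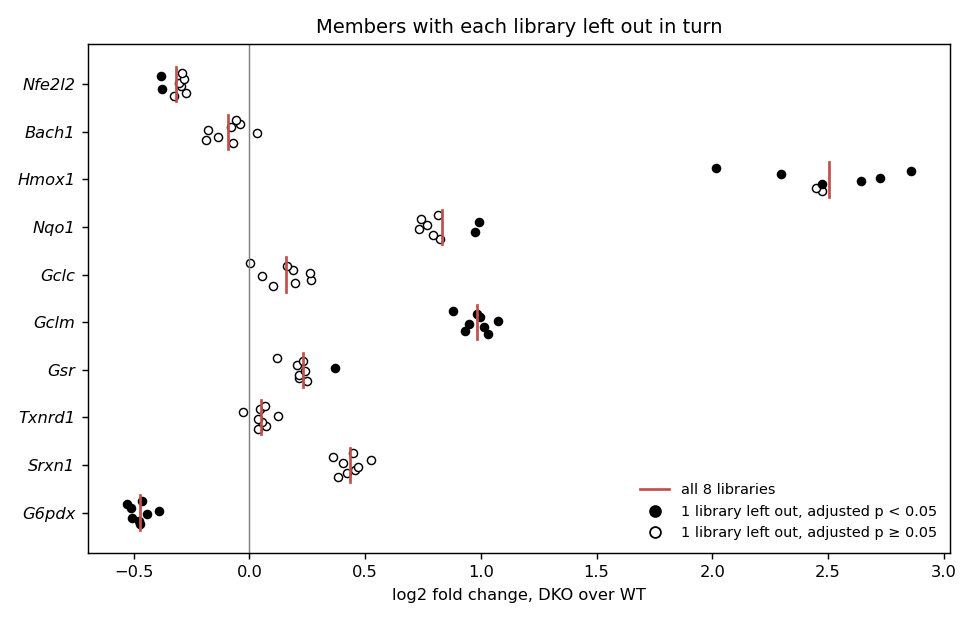
Log2 fold change of DKO over WT (horizontal axis) of the 10 genes with all 8 libraries (red line) and with each library left out in turn (points, filled where the edgeR adjusted p was under 0.05). Gclm and G6pdx keep filled points in 8 of 8 fits, Hmox1 in 6 of 8, and Nfe2l2 and Nqo1 in 2 of 8.

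A wider list of 49 other NRF2 targets, of which 44 were tested, held 7 genes that rose and 3 that fell, against 10.7% and 10.8% of all genes tested, with a median log2 fold change of 0.022. The counts by role below are of small groups and are to be read against the same shares. Among the 17 glutathione genes tested, 3 rose and 1 fell. Slc7a11, the cystine transporter that supplies glutathione synthesis and is also a target of ATF4, had 16.8, 8.61, 35.6 and 27.1 normalized counts in the WT libraries and 255, 499, 293 and 453 in the DKO libraries. It was barely expressed in WT and clearly present in every DKO library, DKO replicate 3 included (log2 fold change 4.08 with standard error 0.47, edgeR adjusted p = 0.00143). Its heavy chain Slc3a2, named here after its values were seen, rose from 9226 ± 438 to 14952 ± 3946 (0.70, edgeR adjusted p = 0.0197). Gstm2, a glutathione transferase of a cluster of similar genes whose reads may be shared, rose from 131 ± 30.6 to 486 ± 255 (1.89, edgeR adjusted p = 0.00844). In DKO replicates 1 to 4 Gstm2 had 859, 306, 339 and 438 normalized counts. The mesenchymal markers summed to 1027, 296, 327 and 489 CPM there, the same order of libraries, while in WT the orders differed. The part of these markers in the Gstm2 difference was not tested. Glrx, cytosolic glutaredoxin and also named after its values were seen, fell by 0.57 on the log2 scale (edgeR adjusted p = 0.0278). Slc7a11 and Gstm2 kept their calls in 8 of 8 fits with 1 library left out, Slc3a2 lost its call without WT replicate 1, 2 or 4, and Glrx lost its call without those or without DKO replicate 4. With the term for sex, Slc7a11 kept its call, while Gstm2 (edgeR adjusted p = 0.139), Slc3a2 (0.230) and Glrx (0.506) did not. The glutathione transferase genes Gstm3, Mgst1 and Mgst2 were named after their values were seen. With that term their log2 fold changes were -2.26, -1.38 and -1.95, and without it edgeR called none of them. DESeq2 called Mgst1 lower without it (-0.60). With that term the genotype difference rests on DKO replicate 3, where these genes had 89.1, 661 and 168 normalized counts. The other DKO libraries had 311 to 516, 1190 to 1470 and 654 to 789.

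With the settings used throughout, the genes of NADPH supply fell where they were called. Of 5 such genes listed as NRF2 targets besides G6pdx, none rose and 2 fell by edgeR's test, and none of the 5 had risen at an unadjusted p under 0.05 or with DESeq2. Pgd, the next NADPH-producing enzyme of the pentose phosphate pathway, had 8434, 8186, 7889 and 8160.2 normalized counts in the WT libraries and 4694, 6438, 6124 and 5483 in the DKO libraries (log2 fold change -0.52 with standard error 0.10, edgeR adjusted p = 0.00854). Pgd lies on chromosome 4. Idh1, cytosolic NADP-dependent isocitrate dehydrogenase, ranged over 4940.4 to 6420.4 normalized counts across the WT libraries and 1834 to 3756 in the DKO libraries (-0.95, edgeR adjusted p = 0.0119). Me1, malic enzyme, was not called (0.46, edgeR adjusted p = 0.519). H6pd, the counterpart of G6pdx in the endoplasmic reticulum and named after its values were seen, also fell (-0.48, edgeR adjusted p = 0.0287), while Pgls, which acts between G6pdx and Pgd, had 0.28 (edgeR adjusted p = 0.0519). With the term for sex, Idh1 kept its call and Pgd did not (edgeR adjusted p = 0.163). Pgd and Idh1 kept their calls in 8 of 8 fits with 1 library left out, and H6pd lost its call without WT replicate 1, 2 or 3 or DKO replicate 4. Pgls passed as higher in 7 of 16 alternatives. By edgeR these were without WT replicate 3 (adjusted p = 0.0479) or DKO replicate 1 (0.0148), without TMM (0.0261), with upper-quartile scaling (0.0155), the stricter filter (0.0313) and protein-coding genes (0.0303). The other was DESeq2 (adjusted p = 0.0351).

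For heme and iron, 2 of 8 genes rose and none fell by edgeR's test, at an unadjusted p under 0.05 or with DESeq2. Blvrb, a biliverdin reductase, had 5779.5, 5328, 6689.9 and 4744 normalized counts in the WT libraries and 9272, 6737, 11029.5 and 11024 in the DKO libraries (log2 fold change 0.76, edgeR adjusted p = 0.0133). Fth1, the ferritin heavy chain, had 47518 to 56051 in WT and 60641 to 80471 in DKO (0.52, edgeR adjusted p = 0.00854). With the term for sex, Blvrb kept its call and Fth1 did not (log2 fold change 0.52). Both were above the whole WT range in DKO replicate 3, the library in which Hmox1 was at the WT level. Ftl1, the ferritin light chain, was not called (0.43, edgeR adjusted p = 0.148; 0.0396 without WT replicate 3), and both ferritin genes have many processed copies in the genome that may share reads.

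In the thioredoxin and detoxification groups, 1 gene each rose. Sesn2, a stress-induced protein that is also an ATF4 target, had 1027, 1025, 876 and 922 normalized counts in the WT libraries and 1796, 2085, 1609 and 3335 in the DKO libraries (log2 fold change 1.20, edgeR adjusted p = 0.00643), but with the term for sex its log2 fold change was 0.74 and it was not called (edgeR adjusted p = 0.153). Akr1b8, an aldo-keto reductase with near relatives in the genome, had 28.0 to 58.6 in WT and 130.2 to 366 in DKO (2.55, edgeR adjusted p = 0.00439), and kept its call with the term for sex. In DKO replicates 1 to 4 Akr1b8 had 366, 130.2, 216 and 226 normalized counts, which is also the order of the mesenchymal marker sums. In WT the orders differed, and the part of these markers in the Akr1b8 difference was not tested. Txn1, thioredoxin itself, had 0.27 (edgeR adjusted p = 0.0785) and passed in 5 of 16 alternatives (edgeR adjusted p = 0.0155 without DKO replicate 1). Prdx1, the peroxiredoxin partner of thioredoxin, had 0.024 (edgeR adjusted p = 0.896).

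Of 20 further antioxidant enzymes tested, which were not listed as NRF2 targets, 5 rose and 3 fell, against 10.7% and 10.8% of all genes tested, with a median log2 fold change of 0.019. The genes that rose were Glrx5, a glutaredoxin of mitochondrial iron-sulfur assembly (0.68, edgeR adjusted p = 0.00650), Gpx4, which reduces lipid peroxides (0.56, adjusted p = 0.00902), the cytosolic superoxide dismutase Sod1 (0.49, adjusted p = 0.00653), Glrx2 (0.31, adjusted p = 0.0180) and Prdx2 (0.32, adjusted p = 0.0451), of which the last 2 were named after their values were seen. Cat, which breaks down hydrogen peroxide, ranged over 6416 to 7381 normalized counts across the WT libraries and 4091 to 5032 in the DKO libraries (-0.54, edgeR adjusted p = 0.00454), and the others that fell were Hmox2 and H6pd. Glrx5, Gpx4, Sod1 and Cat kept their calls in 8 of 8 fits with 1 library left out, Glrx2 lost its call without WT replicate 1, 2 or 4, and Prdx2 lost its call in 7 of 8 fits, all but that without DKO replicate 2. With the term for sex, Glrx5, Gpx4 and Cat kept their calls, while Sod1 (edgeR adjusted p = 0.0949), Glrx2 (0.119), Prdx2 (0.125), Hmox2 (0.313) and H6pd (0.416) did not.

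**Figure D5:**
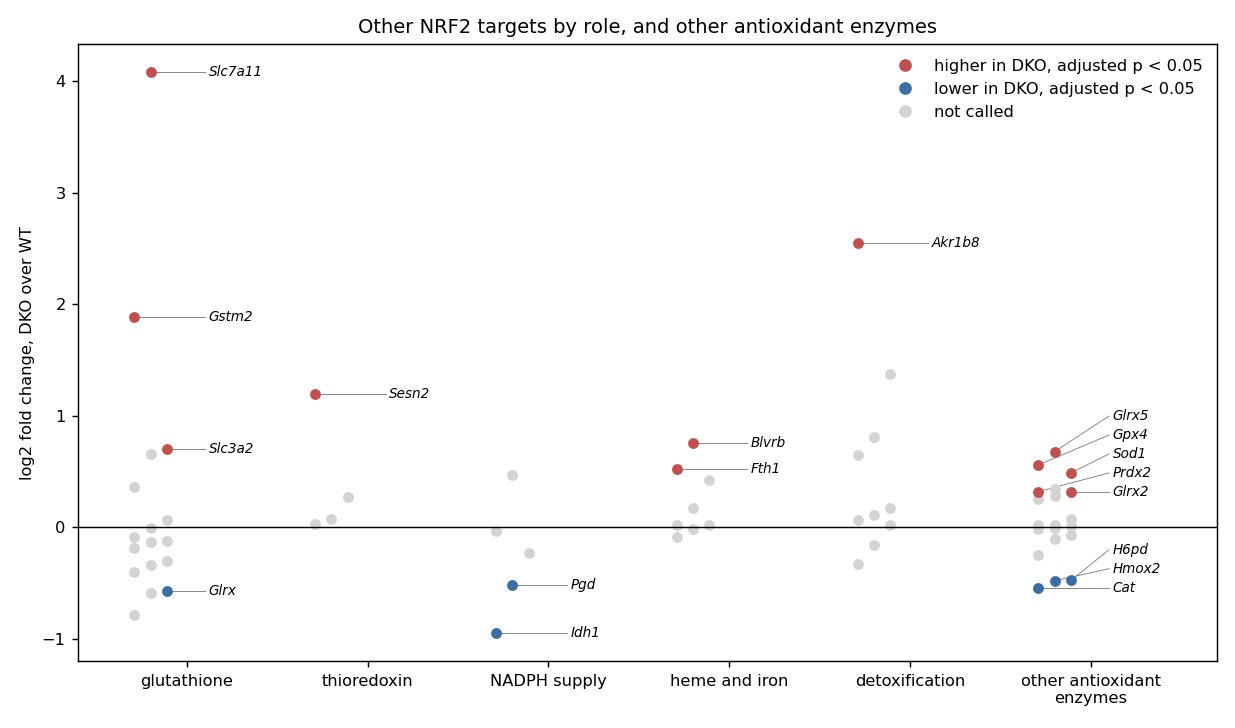
Log2 fold change of DKO over WT (vertical axis) of each tested NRF2 target outside the 10 genes, by role, and of other antioxidant enzymes (right), with called genes coloured and named. The called genes of NADPH supply, Pgd and Idh1, lie below 0, and Slc7a11 has the largest value, 4.08.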

How the data were processed

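Per the labels and the methods, the authors trimmed 150-bp paired reads with fastp 0.21.0, mapped them to mm10 with HISAT2 2.2.1, removed alignments of quality under 20, and deposited whole-number counts per gene, neither normalized nor pooled, made with StringTie 1.3.3b and prepDE. Libraries had been made by template switching and amplification, so counts are not single molecules. Of 52636 identifiers, 52489 matched a GENCODE M21 symbol (GRCm38, the same build) when the version was ignored.

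Here, in R 4.3.3, genes were filtered with filterByExpr, scaled by TMM and compared with edgeR 4.0.16's robust quasi-likelihood test, without covariates. A gene was called at a Benjamini-Hochberg adjusted p under 0.05 over all genes tested. Alternatives were DESeq2 1.42.0 (the authors' tool), other scalings and filters, protein-coding genes without histones, a fold threshold, each library left out, a replicate block and, added after the data were seen, sex. The genes and lists were chosen with earlier results of these data known. The rule named the 10 genes, their 14 regulators and partners, of the other lists the 12 called genes with the smallest p, and Slc7a11, Fth1, Ftl1, Me1, Txn1 and Prdx1. Libraries of one genotype differed by a chi-square of at least 18.3 per gene, so none was counted as a copy of another. The procedure was tested on simulated data.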

Additional observations from a re-analysis of the deposited data

Results flagged for a closer look

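Among 80 groups of 4 libraries examined (the 10 genes and the other genes named by the rule above, in each genotype), 5 held 1 library far from the other 3, by Dixon's 95% criterion for the gap to the nearest library over the whole range. Chance gives about 1 in 20 such groups. WT replicate 3 was the library in 3 of them. Sqstm1 was 6843 normalized counts there against 6449 to 6477 in the other WT libraries. Fth1 was 56051 there against 47518 to 48402. Ftl1 was 195552 there against 119506 to 130085, and without that library Ftl1 passed edgeR's test (adjusted p = 0.0396). In DKO, Mafg was 3214 in replicate 4 against 2381 to 2485, and Nfe2l1 was 3508 in replicate 2 against 2586 to 2703. None of the 10 genes themselves was among these 5 groups.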

How the results depend on the processing

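Over 16 alternatives for each of the 10 genes, 131 values kept their direction and their side of the threshold, 25 lost the call, 1 gained it and 3 changed sign. The sign changed for Bach1 with upper-quartile scaling (0.023), for Bach1 without WT replicate 4 (0.032, range -0.19 to 0.032 with a library left out) and for Txnrd1 without DKO replicate 2 (-0.027, range -0.027 to 0.12). Of the 10 genes, the number called higher was 3 and became 1 with the replicate block, with the term for sex and with a log2 fold threshold of 1, and 1 to 3 with a library left out. The number called lower was 2 and became 1 with upper-quartile scaling, without the filter, with protein-coding genes and with the replicate block, 0 with the term for sex (0 at an unadjusted p under 0.05, and 2 with DESeq2 without that term) and 0 with the fold threshold (0 at an unadjusted p under 0.05 and with DESeq2), and 1 to 2 with a library left out. The other NRF2 targets called higher, 7, became 3 with the term for sex and 4 with the fold threshold, and those called lower, 3, became 0 with the fold threshold (0 at an unadjusted p under 0.05 and with DESeq2). In the fit with the term for sex, the genotype difference rests by construction on the 1 male DKO library. Nqo1 also lost its call without the filter (edgeR adjusted p = 0.0522) and with sex (log2 fold change 1.08, adjusted p = 0.0999), and Nfe2l2 with upper-quartile scaling (adjusted p = 0.142) and with sex (adjusted p = 0.640). The cause of these losses was not tested.

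Replicate numbers showed no pairing of the libraries in these values. Deviations of same-numbered libraries correlated by -0.0772 to 0.0336, and those of differently numbered libraries by -0.106 to 0.101. Whether libraries shared a day or batch of preparation was not tested. With the replicate block, Nfe2l2 (edgeR adjusted p = 0.132), Hmox1 (0.0519) and Nqo1 (0.0600) were not called, and Gclm and G6pdx were. Upper-quartile scaling moved the median log2 fold change of all genes tested from 0.032 to 0.14 and the share of calls that were higher from 49.9% to 66.7%, and without the filter the median was 0.13.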
